A study of Mus musculus with 16 samples.

Results

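The ribosomal protein genes of the mouse autosomes were examined for chromatin loops in the neonatal cochlea. They were taken by symbol from GENCODE vM21 on mm10 (GRCm38): protein-coding genes named Rpl, Rps or Rplp with a number and at most 1 further letter a, x or l. The rule gave 75 genes of 20807 autosomal protein-coding genes, with 43 of the large subunit, 29 of the small subunit and 3 of the stalk. The data are 1 list of chromatin loops from Micro-C, an assay that cuts chromatin with micrococcal nuclease and ligates neighbouring fragments so that contacts can be read by sequencing. The tissue was whole cochlea, the hearing organ, of C57Bl/6 mice, which the sample titles place at P0 and the design text at P0/1. There was no other genotype and no treatment. The 4 replicates, of which replicate 4 is described as technical, were merged before loops were called, so the list holds 1 map of all cochlear cell types together and no value per replicate. It has 6798 loops, of which 6689 are autosomal, with 11622 autosomal anchor bins. Each loop joins a pair of 10 kb bins, its anchors, and carries a false discovery rate (FDR) below 0.1. The list holds no expression values, so the tissue label could not be checked against marker genes, and it holds no read counts, so the depth behind a single loop is unknown.

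Ribosomal proteins assemble with ribosomal RNA into the large and small subunits that carry out protein synthesis in every cell. Their genes are short, active in nearly all tissues and scattered over the genome, yet their products are needed in like amounts. Many of their transcripts begin with a run of pyrimidines, the terminal oligopyrimidine tract, through which their translation responds to growth signals. The 75 genes lay on 18 autosomes, with 14 on chromosome 7, 7 each on chromosomes 11 and 17, and none on chromosome 19. Their median length was 3.37 kb, beside 17.6 kb for all autosomal protein-coding genes. Their start bins had a median GC content of 47.2% (all genes 45.7%), and a median of 9 protein-coding start sites lay within 200 kb of them (all genes 8).

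Sequences are shown for the genes whose start bin was itself an anchor, since the promoter lies within the anchor there. A 10 kb bin does not show whether the promoter itself makes the contact. Each is 60 bases of GRCm38 around the start site that RefSeq gives, from 40 bases before it, on the strand of the gene, and the capitals mark the longest run of C and T within the 20 bases on either side of the start. Of the 6 such genes, 4 had an entry.
Rpl13, chr8:123102310-123102369, plus strand: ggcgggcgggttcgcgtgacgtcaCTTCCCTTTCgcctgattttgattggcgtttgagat
Rpl23, chr11:97782420-97782479, minus strand: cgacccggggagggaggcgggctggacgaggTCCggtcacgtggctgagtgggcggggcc
Rpl24, chr16:55966235-55966294, plus strand: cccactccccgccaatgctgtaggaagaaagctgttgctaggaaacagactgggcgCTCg
Rpl26, chr11:68901526-68901585, plus strand: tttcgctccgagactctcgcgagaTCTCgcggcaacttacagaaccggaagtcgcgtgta
The run was 10 bases in Rpl13, where it began 16 bases before the start, and 3 to 4 bases in the other three. The following windows show what a long run looks like. They belong to genes with an anchor near but not at the start site, and were picked for a run of at least 8 bases across the start.
Rpl35, chr2:39005112-39005171, minus strand: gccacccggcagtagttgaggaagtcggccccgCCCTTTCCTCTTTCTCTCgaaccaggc
Rpl28, chr7:4792925-4792984, plus strand: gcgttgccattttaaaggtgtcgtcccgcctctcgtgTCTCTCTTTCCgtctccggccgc
Rpl27a, chr7:109519155-109519214, plus strand: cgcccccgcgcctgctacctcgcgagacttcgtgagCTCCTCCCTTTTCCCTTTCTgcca
Rpl38, chr11:114668540-114668599, plus strand: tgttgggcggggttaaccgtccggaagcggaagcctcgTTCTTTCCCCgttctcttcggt
These runs measured 18, 11, 20 and 10 bases, in that order. Their lengths follow from how the windows were picked, and other genes with an anchor near the start site had shorter runs. The shown windows therefore cannot tell whether run length differs between genes with an anchor at the start site and genes with one near it. The RefSeq start lay 0 to 17 bases from the GENCODE start in the first set and 48 to 493 bases from it in the second. RefSeq entries were matched for 55 of the 75 genes. A run of 8 or more C or T was found in 26 of them (47.3%, 95% Wilson interval 34.7 to 60.2), and in 15.5% of 15686 autosomal protein-coding genes with an entry. It covered the start itself in 14 of the 55 genes (25.5%) and in 3.38% of all genes. A run of 8 or more, over the start or beside it, was present in 10 of 24 ribosomal protein genes with an anchor within 20 kb (41.7%, 24.5 to 61.2). Without such an anchor it was present in 16 of 31 (51.6%, 34.8 to 68.0), and these intervals overlap. A run over the start was present in 4 of the 24 (16.7%, 6.68 to 35.9) and in 10 of the 31 (32.3%, 18.6 to 49.9). These intervals overlap as well. The pyrimidine run, a mark of the gene family, was thus seen on both sides of the split by loops.

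Loop anchors lay within 20 kb of ribosomal protein genes more often than of protein-coding genes in general. At the start sites the share was near that of all genes, but it rests on 6 genes and its interval is wide. An anchor bin held the start site of 6 of the 75 genes (8%, 95% Wilson interval 3.72 to 16.4), beside 7.35% of all autosomal protein-coding genes. An anchor bin lay within 20 kb of the start site, counting those at it, in 36 genes (48%, 37.1 to 59.1), beside 28.0% of all genes. The share within 20 kb was 60.5% in the large subunit and 31.0% in the small subunit, the latter close to that of all genes. The 30 genes with an anchor near but not at the start site made up 40% (29.7 to 51.3), beside 20.6% of all genes. Wilson intervals cover counting error over genes alone, since 1 merged list has no spread between replicates, and genes are not replicates of the tissue.

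Ribosomal protein genes differ from the average gene in size and neighbourhood, so the shares were also set beside those of like regions. Bins of like GC content and gene density would give 7.58% with an anchor at the bin and 30.8% with an anchor within 20 kb, or 23.1 genes where 36 were found, a ratio of 1.56. Genes of like GC content and gene density would give 7.21% and 29.9%. Genes of like length would give 5.90% and 23.0%. With GC content, gene density and length matched together, the values were 7.23% and 29.7%. At the start site, each of these references lay inside the interval of the ribosomal protein genes. Within 20 kb, each of them lay below it. The spread of the genes over chromosomes changed little, as the share of all genes on the same chromosomes was 27.1%.

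**Figure D1:**
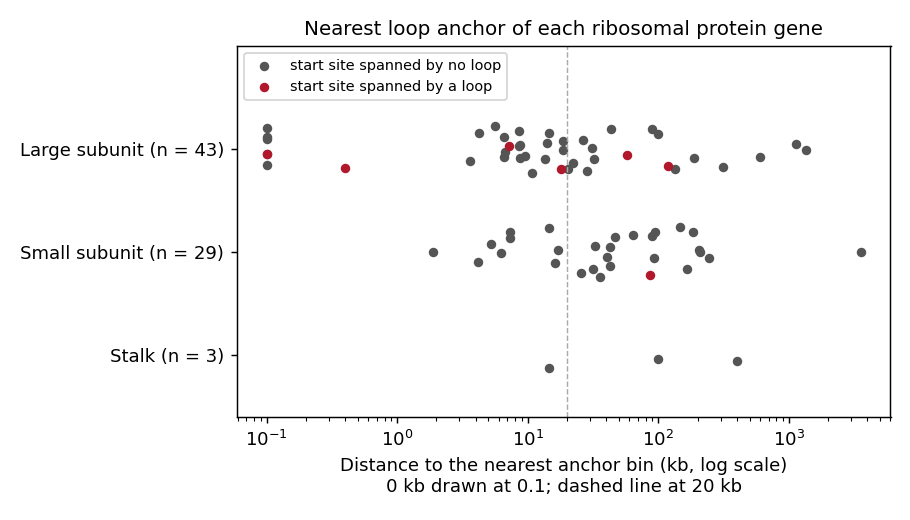
Distance in kb (log scale) from the start site of each of the 75 ribosomal protein genes to the nearest anchor bin, by subunit. Each point is a gene, red where a loop spans the start site, and the dashed line stands at 20 kb. In the large subunit 26 of 43 genes lie at or below 20 kb, in the small subunit 9 of 29 and in the stalk 1 of 3.

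The nearest anchor was at a median of 22.2 kb from the start site (quartiles 7.33 and 91.0 kb), beside 53.7 kb (16.8 and 175 kb) for all genes. The 2 groups were close within 5 kb, where 14.7% of ribosomal protein genes and 13.1% of all genes had an anchor. They parted at 10 kb (33.3% and 18.3%) and stayed apart at 50 kb (68% and 48.3%) and 100 kb (80% and 64.2%). Bin by bin along the direction of transcription, the share with an anchor was 8% (3.72 to 16.4) 20 kb upstream of the start bin, 13.3% (7.41 to 22.8) in the bin just upstream of it, 8% in the start bin, 14.7% (8.39 to 24.4) in the next bin downstream and 12% (6.44 to 21.3) in the one after. In all genes, the same 5 bins gave 7.07%, 7.26%, 7.35%, 6.44% and 6.10%. Over the 4 bins that lie 1 or 2 bins away on either side, an anchor was found in 36 of 300 bins (12%, all genes 6.72%), and over the bins 6 to 10 bins away in 37 of 750 (4.93%, all genes 5.57%). Among these 5 bins, the intervals lay above the value of all genes in the bin just upstream and in the first 2 bins downstream. They did not in the start bin, whose interval also holds the 13.3% and 14.7% of the bins beside it, or 20 kb upstream. Farther out, the interval also lay above all genes 50 kb upstream (10.7%, 5.50 to 19.7; all genes 5.36%). It lay below them 70 kb downstream (0%, 0 to 4.87; all genes 5.55%).

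**Figure D2:**
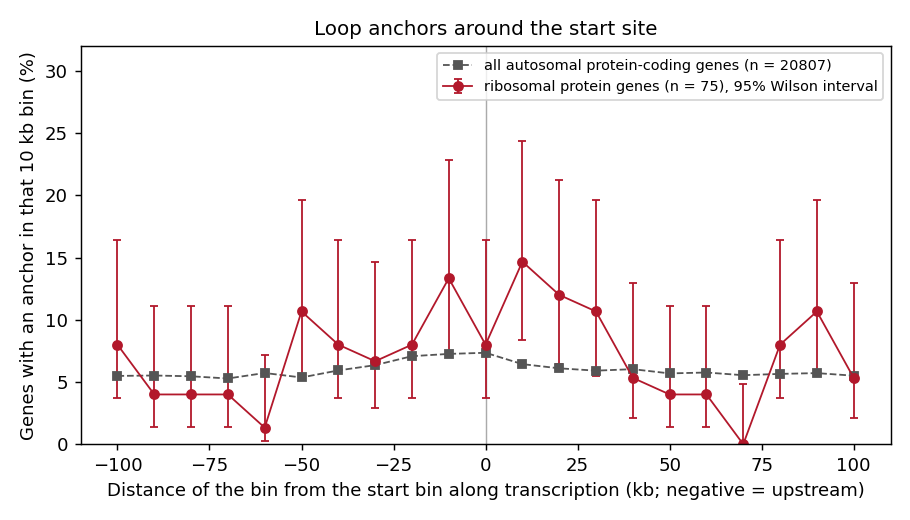
Share of genes (%) with a loop anchor in the 10 kb bin at each distance from the start bin (kb along transcription, negative upstream). Red points are the 75 ribosomal protein genes with 95% Wilson intervals, and grey squares are all 20807 autosomal protein-coding genes. The red points reach 13.3% and 14.7% in the bins on either side of the start bin and stand at 8% in the start bin itself.

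All 6 genes with an anchor at the start site encode proteins of the large subunit. The start bin of Rpl24 (ENSMUSG00000098274.7, plus strand, start at 55966275 on chromosome 16), the gene altered in the Belly spot and tail mouse, had the lowest FDR of these loops. It joined the bin from 55960001 to 55970000 to an intron of Senp7, a SUMO protease gene, 100 kb downstream (FDR 0.000269). Rpl26 (ENSMUSG00000060938.14, plus strand, 68901583 on chromosome 11), whose product also binds p53 mRNA, was joined over 80 kb to exons of Pfas, a gene of purine synthesis (FDR 0.00163). Rpl13 (ENSMUSG00000000740.12, plus strand, 123102350 on chromosome 8) was joined over 90 kb to a bin with exons of Dpep1, a dipeptidase gene, and of the readthrough gene Gm20388 (FDR 0.00261). In these 3 genes the loop ran downstream. In the other three it ran upstream and had a higher FDR.

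Rpl3 (ENSMUSG00000060036.14, minus strand, 80091868 on chromosome 15) encodes a protein that reaches close to the peptidyl transferase centre. Its start bin, which also holds the start of the synaptic vesicle gene Syngr1, was joined over 140 kb to the start of Mief1, a gene of mitochondrial fission (FDR 0.0382). The best supported transcript of Rpl3 begins at 80083406, in a bin that is no anchor, 3.41 kb from the nearest one. Rpl7 (ENSMUSG00000043716.13, minus strand, 16104662 on chromosome 1) shared its start bin with the start of the retinol dehydrogenase gene Rdh10, and this bin was joined over 320 kb to exons of Stau2 (FDR 0.0444), which encodes an RNA-binding protein. Rpl23 (ENSMUSG00000071415.6, minus strand, 97782437 on chromosome 11), whose product can bind MDM2, was joined over 200 kb to the start of Plxdc1 (FDR 0.0742). In 2 of the 6 genes the start bin thus held another promoter as well, and at 10 kb the promoters cannot be told apart.

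Rpl13, Rpl3, Rpl24 and Rpl7 each had a second anchor within 20 kb. For Rpl13 it lay 12.4 kb upstream in Spg7, and its loop ran 180 kb farther upstream to Ankrd11 (FDR 0.00147). For Rpl3 it lay 11.9 kb downstream, within the annotated gene, and its loop ran 130 kb farther downstream to an intron of Cbx7 (FDR 0.000132). Both genes therefore had a loop leaving on each side. The second anchor of Rpl7, 5.34 kb upstream in an intron of Rdh10, was joined over 180 kb to Stau2 (FDR 0.0228), the gene that its start bin also met. The second anchor of Rpl24, 6.28 kb upstream, was joined over 180 kb to exons of Senp7 (FDR 0.0123), again the gene reached from the start bin.

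Of the 30 genes with an anchor near but not at the start site, the nearest anchor was downstream in 18 (60%, 42.3 to 75.4; all such genes 46.8%) and upstream in 12. In 16 of the 18 it lay beyond the 3′ end of the gene. The 2 exceptions were Rpl34, with an anchor 0.398 kb into the gene, and Rpl22, with one at 4.26 kb that also holds the start of the chromatin remodeller gene Chd5. No share over all genes was computed for anchors beyond the 3′ end. Ribosomal protein genes are short (median 3.37 kb), so a downstream anchor outside the start bin will mostly lie beyond their end.

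Among large subunit genes, the lowest FDR belonged to Rpl17 and Rpl37a. The anchor of Rpl17 (chromosome 18, start at 74998558) lay 8.56 kb upstream and its loop ran 170 kb to an intergenic bin (FDR 2.83e-07, rank 4 of the 6798 loops). The anchor of Rpl37a (chromosome 1, start at 72711290) lay 8.71 kb downstream in an intergenic bin and was joined over 110 kb to an intron of Igfbp2, which encodes a protein that binds insulin-like growth factors (FDR 3.48e-07, rank 7). These 2 loops stood well below the other loops near ribosomal protein genes, of which the next, 18.5 kb upstream of Rpl10a, had an FDR of 9.95e-05 and ran 80 kb to Def6. The same anchor of Rpl37a also had a loop of 1100 kb (FDR 0.0173), the longest near a ribosomal protein gene. Rpl37 came next in length, with an anchor 6.645 kb upstream, at the start of Card6, and a loop of 1050 kb to Oxct1, a gene of ketone body use (FDR 0.0129).

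Several large subunit genes had an anchor joined to the start bin of another gene. For Rpl4 the anchor lay 6.63 kb downstream in Snapc5 and Map2k1, and its loop of 70 kb reached the start of Map2k1, a kinase of the MAP kinase cascade (FDR 0.00241). For Rpl35, whose pyrimidine run is shown above, it lay 5.62 kb downstream at the start of Wdr38, and its loop of 70 kb reached the start of the nuclear receptor gene Nr6a1 (FDR 0.000713). For Rpl9 it lay 8.56 kb upstream in Lias, and its loop of 290 kb reached the start of the cohesin regulator gene Pds5a (FDR 0.00665). In each of these 3 loops the partner start site lay on the far side of the anchor as seen from the ribosomal protein gene.

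Most of the remaining large subunit genes with an anchor within 20 kb had short loops, of at most 170 kb. Rpl11, whose product joins that of Rpl5 in a complex with ribosomal 5S RNA, had an anchor 6.57 kb upstream and a loop of 90 kb between intergenic bins (FDR 0.000278). The anchor of Rpl29 was 9.45 kb upstream, with a loop of 110 kb to the centriole gene Poc1a (FDR 0.000153), and that of Rpl18 was 14.5 kb downstream in Sult2b1, with a loop of 70 kb to Lmtk3 and Cyth2 (FDR 0.000827). Rpl22 had a pair of loops from its anchor, of 100 kb to Kcnab2 (FDR 0.00170) and of 160 kb to the ciliary gene Nphp4. All of these loops ran away from the ribosomal protein gene. Rpl27a, Rpl23a and Rpl8 had anchors at 10.9, 13.6 and 14.1 kb, with loops of 160, 110 and 150 kb and partner bins in St5, Flot2 and Arhgap39. The anchor of Rpl32 lay 8.75 kb downstream in Cand2, and its loop measured 170 kb.

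Longer loops started near Rpl30, Rpl31 and Rpl38. Rpl30 had 2 anchors in Matn2, at 3.64 and 13.6 kb downstream, with loops of 290 kb to Mtdh (FDR 0.0566) and of 370 kb to an intergenic bin (FDR 0.0101). Rpl31 had an anchor 17.8 kb upstream in the clock gene Npas2, with a loop of 340 kb to an intergenic bin (FDR 0.000116). Rpl38, the gene deleted in the Tail-short mouse, had an anchor 18.5 kb upstream and a loop of 770 kb to Sdk2, a cell adhesion gene (FDR 0.0357). At 18.524 kb, Rpl38 was also the last gene inside the limit of 20 kb, and Rpl5, at 20.502 kb, was the first outside it.

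In the small subunit, 9 of 29 genes had an anchor within 20 kb (31.0%, 17.3 to 49.2) and none had one at the start site (0%, 0 to 11.7). In the large subunit the numbers were 26 of 43 (60.5%, 45.6 to 73.6) and 6 of 43 (14.0%, 6.56 to 27.3). The share of all genes within 20 kb (28.0%) lay inside the interval of the small subunit and below that of the large subunit. The intervals of the subunits overlap, and the difference between them was not tested. The median distance to the nearest anchor was 42.5 kb in the small and 14.1 kb in the large subunit, while the median GC content (46.3% and 47.2%) and gene density (9 and 9 start sites) were close.

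Rps27a, which encodes a fusion of ubiquitin and a ribosomal protein, had the nearest anchor of the small subunit, 1.89 kb upstream in Clhc1, and its loop of 140 kb reached the start of the reticulon gene Rtn4 (FDR 0.0110). Rps21 had an anchor 7.38 kb upstream with a loop of 70 kb to the start of Adrm1, which encodes a ubiquitin receptor of the proteasome (FDR 0.0216). In both of these genes the partner bin held a start site. Rps13 had a pair of loops from 1 anchor 4.20 kb downstream, of 80 kb (FDR 0.000256) and of 170 kb (FDR 0.00169), both into Plekha7, a gene of the zonula adherens. Rps12 had an anchor 7.28 kb downstream and a loop of 670 kb to Eya4 (FDR 0.00201), a transcriptional coactivator gene in which mutations cause hearing loss. The partner genes of the small subunit thus had varied functions.

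Rps3, whose product lines the entry of the mRNA channel, had anchors 6.26 and 16.3 kb upstream, with loops of 90 kb to the arrestin gene Arrb1 (FDR 0.00116) and of 290 kb to an intergenic bin (FDR 0.0645). Rps23 had an anchor 17.0 kb downstream in an intron of Atg10, with a loop of 530 kb to Ssbp2 (FDR 0.0497). For Rps28 the anchor lay 14.6 kb downstream, and a loop of 70 kb joined intergenic bins (FDR 0.0577).

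The stalk proteins recruit translation factors to the large subunit. Rplp1 had an anchor 14.5 kb downstream and a loop of 970 kb between intergenic bins (FDR 0.0326), while the nearest anchors of Rplp0 and Rplp2 lay at 99.5 and 397 kb. None of the 4 paralogs whose symbol ends in l had an anchor within 20 kb (0 to 49.0%). Their distances were 22.2 kb for Rpl3l, the muscle paralog of Rpl3, 93.9 kb for Rps27l, 99.8 kb for Rpl39l and 1136 kb for Rpl10l, the testis paralog of Rpl10. After Rpl5 and Rpl3l, the nearest anchor outside the limit was that of Rps20 at 25.7 kb. That of Rpl10l was among the 3 farthest.

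**Figure D3:**
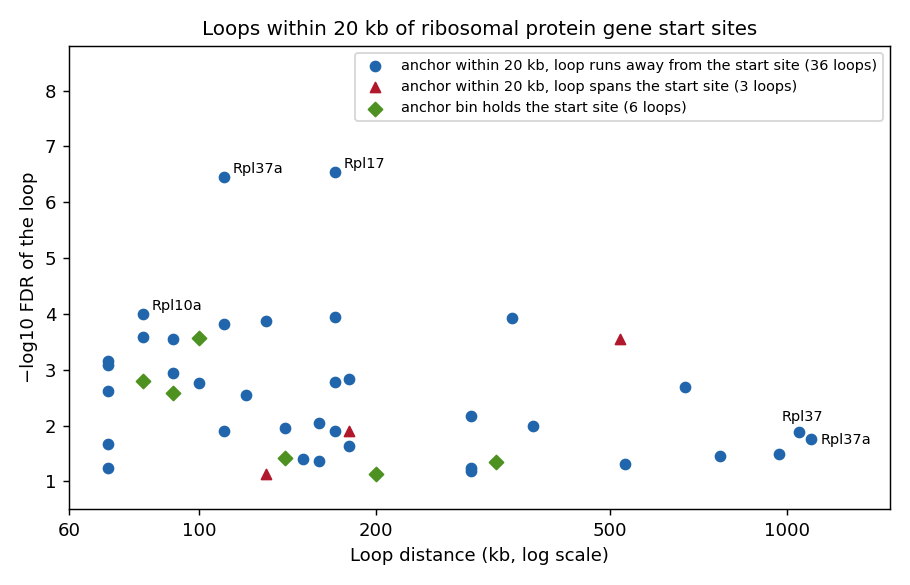
Loop distance (kb, log scale) and −log10 FDR of the 45 loops with an anchor within 20 kb of a ribosomal protein gene. Green diamonds are the 6 loops with an anchor at the start site, red triangles the 3 that span it and blue circles the 36 that run away from it. The loops of Rpl17 (170 kb) and Rpl37a (110 kb) lie highest, and 31 of the 45 loops are shorter than 200 kb.

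Altogether 45 loops had an anchor within 20 kb of a ribosomal protein gene. They used 42 distinct anchor bins, 27 genes had 1 loop and 9 had 2. No loop lay near 2 ribosomal protein genes, and none joined the neighbourhoods of 2 of them (0 of 45, 0 to 7.87%). No share for other gene sets was computed beside these counts. With only 75 genes scattered over the autosomes, such loops would be rare in any case, so the counts do not show whether these genes avoid each other. Their median length was 160 kb (95% interval of the median 110 to 180, range 70 to 1100 kb), beside 240 kb (230 to 250) for the 4331 loops within 20 kb of any protein-coding start site and 280 kb (270 to 290) for all autosomal loops. Loops under 200 kb made up 31 of the 45 (68.9%, 54.3 to 80.5), beside 40% and 34.1%. The loops near ribosomal protein genes were thus shorter than both references, which were not matched for GC content, gene density or gene length. Their median FDR was 0.00665, beside 0.0112 for both references, and 40 of the 45 had an FDR below 0.05 (88.9%, 76.5 to 95.2; 79.9% of loops near any start site), so that share was not set apart beyond counting error. The far anchor held a protein-coding start site in 8 of 45 loops (17.8%, 9.29 to 31.3), beside 12.5% for all genes. It overlapped an exon in 30 (66.7%, 52.1 to 78.6), only introns in 7 (15.6%) and no protein-coding gene in 8 (17.8%), beside 46.4%, 13.5% and 40.1% of all autosomal anchor bins. That reference includes anchor bins far from genes and is not matched for gene density. In the 39 loops with an anchor near but not at the start site, that anchor overlapped an exon in 56.4% (41.0 to 70.7), an interval that holds 46.4%.

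The start sites of ribosomal protein genes were seldom bridged by a loop. A start site was counted as spanned where a loop had its anchors on either side of it. No loop spanned the start site in 68 of the 75 genes (90.7%, 82.0 to 95.4), beside 63.9% of all autosomal protein-coding genes. Genes of like GC content, gene density and length would give 65.6%, genes of like length 70.7%, and bins of like GC content and gene density 54.2%, all below the interval. This comparison was added after the loops of these genes had been seen. The share was 86.0% (72.7 to 93.4) in the large subunit, 96.6% (82.8 to 99.4) in the small subunit and 3 of 3 in the stalk. It was 32 of 36 (88.9%, 74.7 to 95.6) in the genes with an anchor within 20 kb, where 46.7% of all such genes were unspanned, and 36 of 39 (92.3%, 79.7 to 97.3) in those without, where the value for all genes was 70.6%. The lack of bridging loops was thus seen in both sets of genes.

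**Figure D4:**
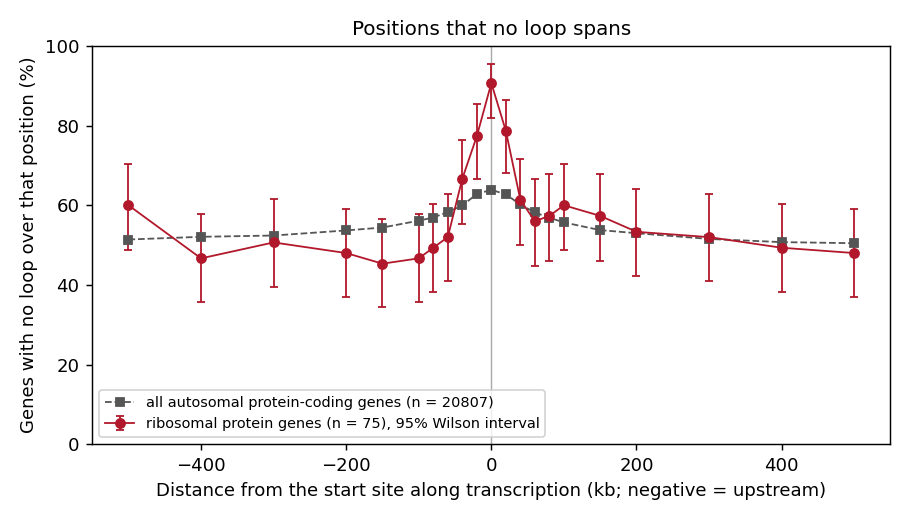
Share of genes (%) for which no loop spans the position at each distance (kb along transcription, negative upstream) from the start site. Red points are the 75 ribosomal protein genes with 95% Wilson intervals and grey squares all 20807 autosomal protein-coding genes. The red points peak at 90.7% at the start site and fall to 52% at 60 kb upstream and 56% at 60 kb downstream.

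The share of unspanned positions fell off on either side of the start site. At 20 kb it was 77.3% upstream and 78.7% downstream, beside 62.8% and 62.7% for all genes. At 60 kb it was 52% and 56%, beside 58.3% and 58.2%, and at 200 kb it was 48% and 53.3%, beside 53.7% and 53.0%. Beyond 60 kb, the regions around ribosomal protein genes were therefore spanned by loops about as often as those around other genes, within counting error at these distances.

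Loops that started near a ribosomal protein gene mostly ran away from it. This count is not independent of the share of unspanned start sites, as 32 of the 36 genes with an anchor within 20 kb were spanned by no loop. Of the 39 loops with an anchor within 20 kb of a start site but not at it, 3 spanned the start site (7.69%, 2.65 to 20.3), beside 39.4% of 6352 pairs of a gene and such a loop over all protein-coding genes. Genes of like GC content, gene density and length would give 38.2%. Both short and long loops gave low shares, with 2 of 27 loops under 200 kb (all genes 40.6%) and 1 of 12 longer loops (all genes 38.3%) spanning the start. The 3 loops were the one of Rpl34, from 0.398 kb inside the gene over 520 kb to Hadh (FDR 0.000282), the second loop of Rpl24, and the one of Rpl28, from Ube2s, 7.13 kb downstream, back over 130 kb to Hspbp1 (FDR 0.0751). Rpl31, Rps10 and Rpl7a were each spanned by 1 loop, of 520, 220 and 390 kb, and Rpl21 by 2 loops, of 190 and 610 kb, whose anchors were all over 20 kb from the start site. What sets the direction of these loops was not tested.

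Other housekeeping genes were described in the same way. An anchor lay within 20 kb in 30 of 78 genes of mitochondrial ribosomal proteins (38.5%, 28.4 to 49.6), which build the separate ribosome of mitochondria. The count was 9 of 22 for ribosome biogenesis genes (40.9%, 23.3 to 61.3), 18 of 65 for translation factors (27.7%, 18.3 to 39.6) and 11 of 38 for proteasome subunits (28.9%, 17.0 to 44.8), beside 28.0% of all genes. The translation factor list was taken by symbol (Eif or Eef and a number). It therefore also holds genes of kinases, methyltransferases and binding proteins that act on these factors, such as Eef2k, Eef1akmt3 and Eif4ebp2. This list and the proteasome subunits stood near the share of all genes. The interval of the ribosomal protein genes overlaps each of these, and the differences between the lists were not tested. The start site was spanned by no loop in 78.2% (67.8 to 85.9) of the mitochondrial ribosomal protein genes, 81.8% (61.5 to 92.7) of the biogenesis genes, 80% (68.7 to 87.9) of the translation factors and 78.9% (63.7 to 88.9) of the proteasome subunits. These shares were above that of all genes (63.9%) in all 4 lists, and their intervals overlap that of the ribosomal protein genes. Of the loops with an anchor near but not at these start sites, 5 of 39 (12.8%), 1 of 14 (7.14%), 1 of 17 (5.88%) and 1 of 10 (10%), in that order, spanned the start site. The share was 7.69% for ribosomal protein genes and 39.4% for all genes. A low share of spanning loops was therefore not particular to ribosomal protein genes, though the counts are small. The interval of the proteasome subunits (1.79 to 40.4) holds the value of all genes.

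**Figure D5:**
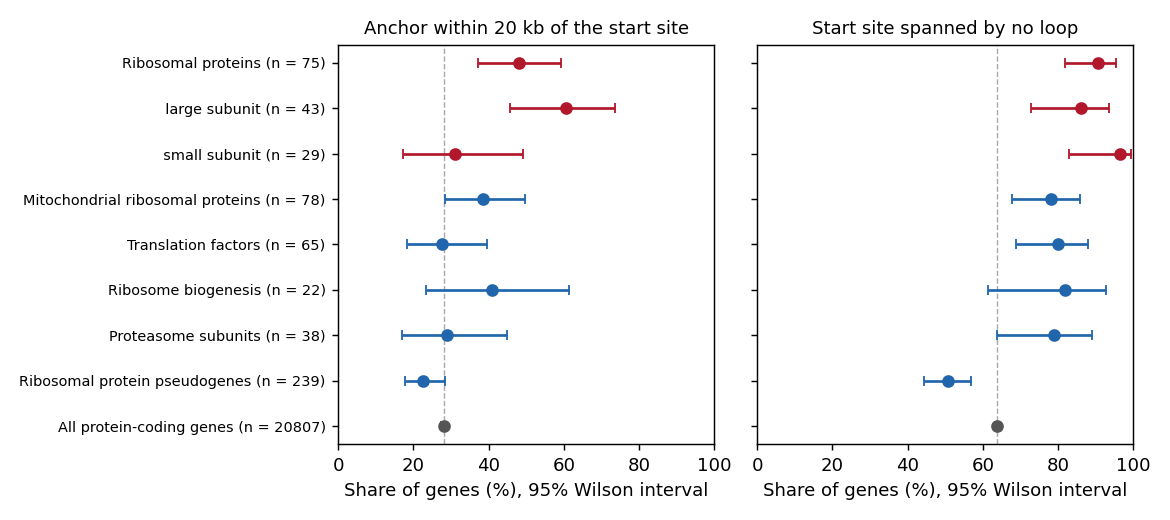
Share of genes (%) with an anchor within 20 kb of the start site (left) and with a start site that no loop spans (right), with 95% Wilson intervals, for ribosomal protein genes and their subunits (red), other gene lists (blue) and all autosomal protein-coding genes (grey, dashed line). Ribosomal protein genes stand at 48% and 90.7% and their pseudogenes at 22.6% and 50.6%.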

How the data were processed

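Micro-C of P0 cochlea was performed in 4 replicates. The authors used BWA-MEM for alignment to mm10 and pairtools for the removal of duplicates, retained only chimeric pairs, merged the replicates, made contact matrices with juicer_tools and ran Mustache on 10 kb bins; versions are not given in the sources used here. The q-value (FDR) of each loop was deposited as the authors' loop caller gave it, and so was its detection scale, a score used here only to describe and filter loops. Merging hides variation between replicates, and 10 kb bins do not separate neighbouring promoters. The 12 other samples were not analysed here.

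The start site was the 5′ end of the gene in GENCODE vM21, and a distance ran from it to the nearest base of an anchor bin. Reference shares were averaged over the genes' own classes of GC content (10 groups), gene density (5 groups, start sites within 200 kb) and length (10 groups, or 5 groups of each when combined), leaving out bins with over 10% unknown bases. Intervals are 95% Wilson intervals. No test between samples was possible. Promoter sequences were from RefSeq (GRCm38). Distances and standardised shares were tested on simulated data. Python 3.11.15, numpy 2.4.6, pandas 2.3.3, scipy 1.17.1 and matplotlib 3.10.9 were used.

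Genes named were all ribosomal protein genes with an anchor at the start site or within 20 kb, and the 3 nearest and 3 farthest of the others; any further gene was named after its values were seen. Some of the genes that this rule takes in, and some partner genes, are not reported here. The genes and lists were chosen with earlier results of these data known.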

Additional observations from a re-analysis of the deposited data

How the results depend on the processing

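The list was called on merged replicates, so the spread between animals is unknown, replicates could not be left out in turn, and intervals cover counting error over genes alone. No paired analysis was possible because the list gives no value for a single replicate. Of 39 alternative values, 35 stayed within 1.5 times the reported count or moved little. The number of genes with an anchor at the start site fell to 3 at an FDR below 0.01 (Rpl13, Rpl24 and Rpl26; 4%, all genes 3.57%) and to 3 with the smallest detection scale only (4%, all genes 5.66%), and rose to 25 with bins widened by 10 kb on each side (33.3%, all genes 18.3%). It was 5 with the best supported transcripts, an alternative chosen after seeing the data. The number with an anchor within 20 kb fell to 22 at an FDR below 0.01 (29.3%, all genes 15.6%) and was 33 at an FDR below 0.05 (44%, all genes 23.8%). With the best supported transcripts it was 37 (49.3%, all genes 27.8%). The number of start sites spanned by no loop ran from 68 to 72, and at an FDR below 0.01, with fewer loops, the shares were 96% and 79.1% of all genes.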

Other observations

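Ribosomal protein genes have left many processed pseudogenes, copies of their mRNA inserted elsewhere in the genome. Of 239 annotated autosomal pseudogenes named after the 75 genes, 54 had an anchor within 20 kb (22.6%, 95% Wilson interval 17.8 to 28.3; all protein-coding genes 28.0%), and 121 were spanned by no loop (50.6%, 44.3 to 56.9; all protein-coding genes 63.9%). Both intervals lie below those of the ribosomal protein genes themselves (37.1 to 59.1 and 82.0 to 95.4).

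Of 11 ribosomal protein genes that the naming rule or the restriction to autosomes left out, 3 had an anchor within 20 kb (27.3%, 9.75 to 56.6). That interval holds both the 28.0% of all autosomal protein-coding genes and the 48% of the 75 genes. The 3 genes were Rpl10 at 10.8 kb, Rps3a1 at 12.7 kb and Rpl36al at 15.9 kb. None of the 11 had an anchor at the start site, and 10 of the 11 were spanned by no loop (90.9%, 62.3 to 98.4). Rpl10, Rpl36a, Rpl39 and Rps4x are on chromosome X, which the autosomal share does not cover.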
